A study of Rattus norvegicus with 10 samples.

Results

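Atp6ap1l and 9 other genes of the vacuolar proton pump were followed in the hypothalamic paraventricular nucleus of dehydrated and control rats. They comprise the accessory proteins Atp6ap1 and Atp6ap2, the V0 subunits Atp6v0a1 and Atp6v0d1, and the V1 subunits Atp6v1a, Atp6v1b2, Atp6v1c1, Atp6v1e1 and Atp6v1h. Their probe sets were those whose platform annotation gave exactly 1 gene symbol equal to 1 of these names, which selected 13 of the 31042 probe sets other than controls, or 10 of 14217 annotated genes. Atp6ap1, Atp6v0a1, Atp6v0d1, Atp6v1c1, Atp6v1e1, Atp6v1h and Atp6ap1l had 1 probe set each, and the other 3 genes had 2. All 13 passed the filter on dim signals. Atp6ap1l was chosen by its measured signal in the same comparison, which differed between the groups, and the other genes were added for the family they belong to, so the differences of all members are given as a description and without a test.

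Tissue came from adult male Sprague Dawley rats aged 10 to 12 weeks, dehydrated for 3 days or kept as euhydrated controls, with 5 pools in the dehydrated and 5 in the control group. Each pool combined the nuclei of 5 animals and was hybridised to 1 Affymetrix Rat Genome array. The pools of a group came from separate sets of animals, so their spread holds biological and technical variation together. Every sample label names the paraventricular nucleus, although the series-level description speaks of the supraoptic nucleus. Signals are linear and in arbitrary units, scaled by the authors to the same trimmed mean on every array, and those of different probe sets cannot be set against each other as levels of RNA. Control replicate 5 stood apart from the other 9 arrays on the first principal component, at 37.2 against -14.4 to 3.69, and values without it are given beside the differences of named genes that turn sign or move by over 1.5 times. Vasopressin (Avp) and oxytocin (Oxt), the defining products of the nucleus, gave signals of at least 3930 and 3953 in every dehydrated pool, and of at least 2853 and 3631 in every control pool. Avp differed by 0.50 ± 0.11 on the log2 scale (limma adjusted p = 0.0504), Oxt by 0.24 ± 0.08 (0.218) and Crh, the releasing hormone of the stress axis, by 0.19 ± 0.20 (0.726), so that none of the 3 passed. Avp and Oxt reached 5698.1 and 5499.3, while the highest signal of an array was 4988.6 to 6495.5. Signals can compress at that end, which would shrink differences, so the sizes for Avp and Oxt may be understated. Compression was not measured here.

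The vacuolar proton pump, or V-ATPase, moves protons into synaptic vesicles, secretory granules, endosomes and lysosomes. Its peripheral V1 sector splits ATP, its membrane V0 sector carries the protons, and the cell adjusts activity in part by joining and parting the sectors. In peptide neurons such as the magnocellular cells of this nucleus, an acid granule interior is needed for the enzymes that cut prohormones and for the dense packing of the peptides. The accessory protein Ac45, encoded by Atp6ap1, is known in neuroendocrine cells for steering the pump into the secretory pathway, and Atp6ap1l is named for its likeness to it. Atp6ap1l is counted with the pump by that name. Its likeness to Ac45 was not computed and a role in the pump was not tested here.

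Atp6ap1l had a higher signal in all 5 dehydrated pools than in any control pool. The signals were 170.5, 124.2, 163.3, 154.8 and 110.4 in dehydrated replicates 1 to 5, against 75.4, 77.5, 56.5, 62.0 and 54.7 in control replicates 1 to 5. The groups were well apart, the lowest dehydrated pool lying 1.42 times above the highest control pool. Means were 145 ± 26.0 in dehydrated pools and 65.2 ± 10.6 in control pools (SD, n = 5 each), and the single dehydrated pools lay between 1.69 and 2.61 times the control mean. On the scale of log2(signal + 3.72) the difference was 1.10 ± 0.13 (SE of the limma fit), a fold of 2.14, which 10 of the 18629 tested probe sets exceeded. It was 1.04 without control replicate 5 and ran from 1.04 to 1.19 with each array left out in turn. With every array scaled to the same trimmed mean, a signal is relative to the other RNA of the pool. More transcript per cell, more cells of the type that makes it and less of other RNA therefore cannot be told apart.

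The stretch before the annotated start of Atp6ap1l is shown because this member carries the difference. It was read from RefSeq on build GRCr8, where the table holds 1 window for the gene, on the minus strand at chr2:23800221-23800470, and that start lies inside the gene model rather than at its outer end.
Atp6ap1l: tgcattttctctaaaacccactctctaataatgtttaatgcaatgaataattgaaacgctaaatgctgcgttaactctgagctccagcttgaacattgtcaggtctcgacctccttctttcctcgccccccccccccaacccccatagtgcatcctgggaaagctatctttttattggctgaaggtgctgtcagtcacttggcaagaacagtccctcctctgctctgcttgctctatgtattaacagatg
In all, 3 motifs were searched on both strands of the window of 250 bases before to 50 after the start. These were the E-box core CACGTG, its extended form TCACGTGA that is known from lysosomal gene promoters, which contains the core, and the cyclic AMP response element TGACGTCA. None of the 3 was found in the Atp6ap1l window, hence no base above is in capitals. Over all 33469 promoter windows the shares with a match were 6.42%, 0.777% and 1.83%.

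**Figure D1:**
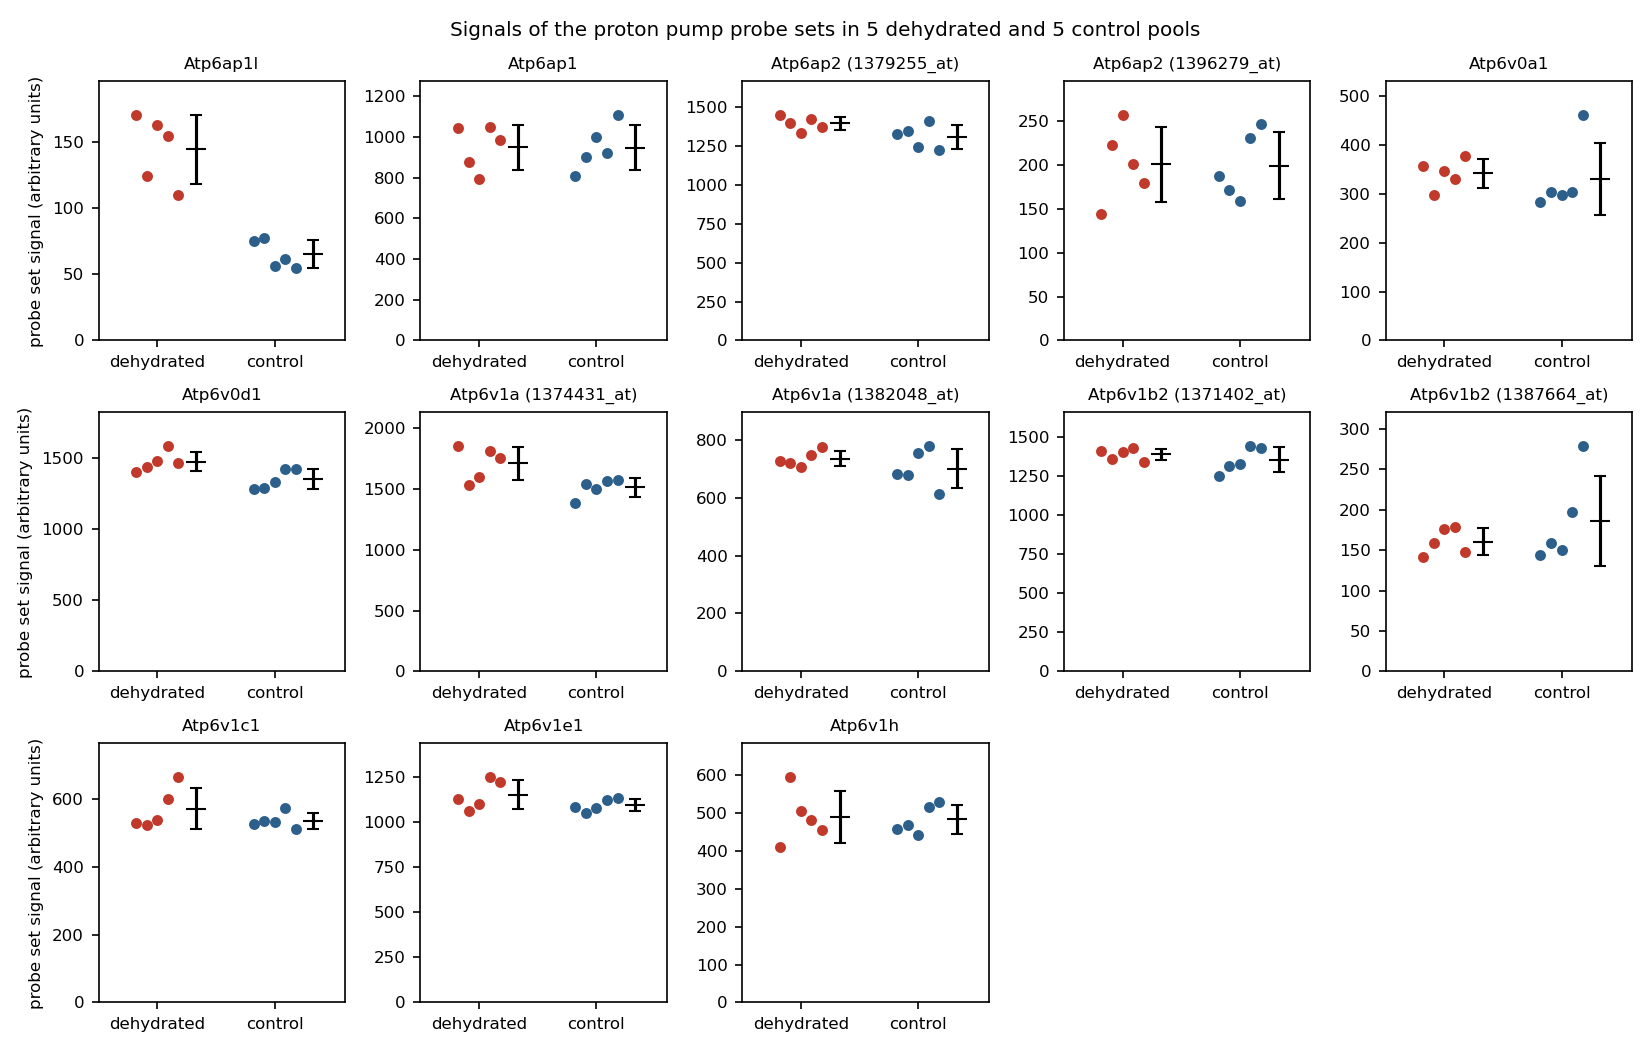
Probe set signals (arbitrary units, each axis from 0) of the 13 member probe sets in 5 dehydrated pools (red, left) and 5 control pools (blue, right), 1 point per pool, with the mean and SD beside them. For Atp6ap1l the dehydrated pools run from 110.4 to 170.5 and the control pools from 54.7 to 77.5, and in the other 12 panels the groups overlap.

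Of the 13 member probe sets, 1 had groups without overlap, that of Atp6ap1l. Of all tested probe sets 3.36% did, 1.94% with the dehydrated pools higher and 1.42% with them lower. At an adjusted p threshold of 0.05 limma called 0.580% of all, 0.397% as higher and 0.183% as lower in dehydrated pools. Since Atp6ap1l was picked for this contrast, no call is given for the members, and nothing is read from the count without overlap. The other 12 probe sets had log2 differences from -0.17 to 0.17 with a median of 0.07, against a median of -0.00477 over all tested probe sets. Of these, 11 were above 0 (10 after quantile normalization, where Atp6ap1 turned negative), where 48.8% of all tested probe sets were.

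The other accessory proteins had differences close to 0. Atp6ap1 itself had signals of 1042.7, 875.2, 791.7, 1049.3 and 982.9 in dehydrated pools, against 807.8, 903.3, 1001.0, 919.9 and 1106.7 in control pools. The ranges coincided almost fully, with means of 948 ± 112 in dehydrated and 948 ± 112 in control pools (SD, n = 5 each) and a log2 difference of 0.00060 ± 0.089 that was -0.019 after quantile normalization and 0.06 without control replicate 5. Atp6ap2 encodes the prorenin receptor, which is also a pump-associated membrane protein. Its brighter probe set (1379255_at) had 1449.5, 1399.0, 1338.4, 1422.4 and 1374.9 in dehydrated pools, against 1330.2, 1346.6, 1244.5, 1410.5 and 1225.6 in control pools. Dehydrated pools tended to lie higher but overlapped the controls, and the log2 difference was 0.09 ± 0.05. The other Atp6ap2 probe set (1396279_at) ran from 143.7 to 256.8 in dehydrated pools and from 159.5 to 247.4 in control pools, a log2 difference of 0.0043 ± 0.14 (0.09 without control replicate 5). Its spread between pools was wider, with a log2 SD of 0.31 in dehydrated and 0.27 in control pools, against 0.04 and 0.08 for the brighter one.

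In the V1 sector, probe set 1374431_at of Atp6v1a, the catalytic subunit A gene, gave 1848.7, 1531.0, 1594.9, 1808.1 and 1756.2 in dehydrated pools, against 1382.7, 1535.7, 1498.2, 1560.5 and 1574.8 in control pools. Dehydrated replicates 1, 3, 4 and 5 lay above every control pool, and replicate 2 lay among the controls. The log2 difference was 0.17 ± 0.06, from 0.14 to 0.21 with arrays left out in turn, and the means differed by 13.1%. The second Atp6v1a probe set (1382048_at) had 735 ± 26.6 in dehydrated and 700.1 ± 66.2 in control pools (SD, n = 5 each). The log2 difference was 0.07 ± 0.07, and 0.03 without control replicate 5.

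The probe sets of Atp6v1b2, the brain form of the nucleotide-binding subunit B, differed in sign. The brighter one (1371402_at) had 1391 ± 37.4 in dehydrated and 1356 ± 80.1 in control pools, a log2 difference of 0.04 ± 0.05 (0.06 without control replicate 5). The dimmer one (1387664_at) had 141.6, 159.5, 176.4, 178.7 and 147.5 in dehydrated pools, against 144.2, 159.1, 150.7, 197.1 and 278.7 in control pools. A single array, control replicate 5, was far above the rest there. The log2 difference of -0.17 ± 0.14 was -0.01 ± 0.10 without that array. The remaining V1 members had overlapping groups and log2 differences of 0.09 ± 0.07 for Atp6v1c1, the subunit that governs sector assembly, 0.07 ± 0.06 for the stalk subunit gene Atp6v1e1 and 0.01 ± 0.09 for the regulatory subunit gene Atp6v1h (0.04 without control replicate 5). Their signals ran from 524.3 to 663.8 in dehydrated and 512.4 to 572.6 in control pools for Atp6v1c1. For Atp6v1e1 they ran from 1063.4 to 1249.5 in dehydrated and from 1049.4 to 1134.8 in control pools, and for Atp6v1h from 411.0 to 595.3 in dehydrated and from 443.6 to 528.7 in control pools.

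In the V0 sector, Atp6v0d1, which couples the membrane ring to the central stalk, had 1398.8, 1437.6, 1479.4, 1579.9 and 1462.2 in dehydrated pools, against 1280.1, 1286.8, 1325.8, 1420.9 and 1423.4 in control pools. Dehydrated replicates 2 to 5 lay above all controls and replicate 1 did not, with a log2 difference of 0.13 ± 0.05. Atp6v0a1, the a subunit isoform of synaptic vesicles, had 358.2, 298.4, 346.9, 331.1 and 378.5 in dehydrated pools, against 284.4, 304.7, 297.1, 304.3 and 461.4 in control pools. The highest of all 10 arrays was control replicate 5. The log2 difference was 0.07 ± 0.11 with it and 0.20 ± 0.07 without it, so that the size of this difference rests on 1 array.

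Other genes of the pump had small differences, mostly above 0, and none was called. They were 11 tested subunit genes outside the members, each represented by its brightest probe set, and 10 of them were above 0 (9 after quantile normalization, 8 without control replicate 5), with a median log2 difference of 0.09. In limma 0 of the 11 passed, while 4 had an unadjusted p under 0.05, where 2368 of the 18629 tested probe sets had one (12.7%). Of the V1 list, 4 of 8 genes were tested. Atp6v1g1, a stalk subunit, had 263.9, 346.1, 290.0, 413.9 and 274.7 in dehydrated pools, against 210.5, 237.2, 198.1, 294.1 and 258.2 in control pools. The groups overlapped, and the log2 difference was 0.40 ± 0.12 (limma adjusted p = 0.185). Atp6v1f, the subunit F gene of the central stalk, had 1563 ± 93.3 in dehydrated and 1365 ± 100.4 in control pools (log2 0.20 ± 0.06, limma adjusted p = 0.186), and Atp6v1g2, the neuronal stalk form, differed by 0.10 ± 0.06 (adjusted p = 0.515).

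Of the V0 list, 7 of 9 genes were tested. Rnasek, a small transmembrane protein bound to the pump, had non-overlapping groups, with 1882.7, 1959.5, 1931.6, 1911.8 and 1828.4 in dehydrated pools, against 1745.2, 1780.6, 1759.1, 1816.6 and 1625.9 in control pools. The gap between the groups was small, and the log2 difference of 0.12 ± 0.05 did not pass (limma adjusted p = 0.286). Dehydrated pools were higher without overlap in 1.94% of all tested probe sets. Atp6v0b and Atp6v0e2, both membrane subunits, differed by 0.13 ± 0.06 and 0.09 ± 0.06 (adjusted p = 0.381 and 0.525). A dimmer probe set of Atp6v0b had a log2 difference of -0.28 ± 0.12 (adjusted p = 0.355), opposite to the brighter one. Tcirg1, the osteoclast form of subunit a, was the 1 of 11 below 0, at -0.08 (-0.05 without control replicate 5). A dimmer probe set of Tcirg1 had overlapping groups and a log2 difference of -0.33 ± 0.26 (adjusted p = 0.626).

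**Figure D2:**
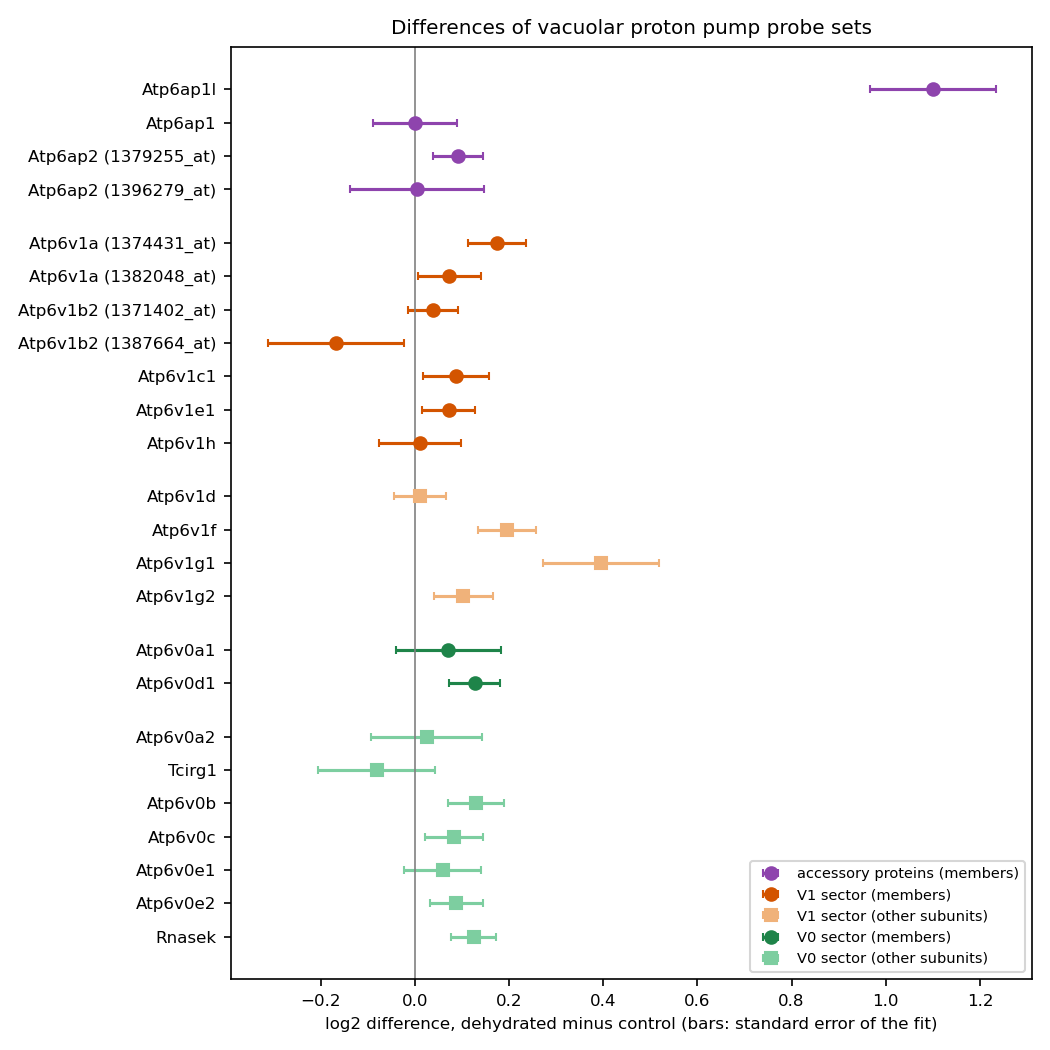
Log2 differences, dehydrated minus control, of the 13 member probe sets (circles) and of 11 other subunit genes (squares), grouped by sector, with bars for the standard error of the fit. Atp6ap1l lies at 1.10, the other members lie between -0.17 and 0.17, and Atp6v1g1 is the farthest of the other subunits at 0.40.

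Around the pump, the genes that assemble it, balance its charge or use its gradient gave no call. Of 9 tested assembly and regulation genes 5 were above 0 (6 after quantile normalization), 2 had an unadjusted p under 0.05 and 0 passed in limma. Oxr1, an oxidation resistance protein of the family whose TLDc domain binds the pump, had 753.1 to 822.3 in dehydrated and 623.8 to 738.5 in control pools (log2 0.19 ± 0.06, adjusted p = 0.171). Tmem199, an assembly factor, had 585.3 to 617.4 in dehydrated and 497.5 to 576.2 in control pools (log2 0.15 ± 0.06, adjusted p = 0.298). Neither gene had overlapping groups, where 1.94% of all tested probe sets had dehydrated pools higher without overlap. Aldoa, a glycolytic enzyme that binds the pump, had overlapping groups with a log2 difference of 0.13 ± 0.06 (adjusted p = 0.394).

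Of 8 tested genes for counter-ion transport 4 were above 0, and 0 passed in limma with 0 at an unadjusted p under 0.05. Their smallest p belonged to the chloride-proton exchangers Clcn4 and Clcn6 and the endolysosomal cation channel Tpcn1, with log2 differences of -0.15, -0.10 and 0.13. Without control replicate 5 Clcn6 was at -0.06 and Tpcn1 at 0.06. Of 4 tested vesicular transporters 0 passed and 2 had an unadjusted p under 0.05. The GABA and glycine transporter Slc32a1 had 470 ± 44.1 in dehydrated and 551 ± 56.0 in control pools (log2 -0.23 ± 0.08, adjusted p = 0.241). The glutamate transporter Slc17a6 had 951 ± 115 in dehydrated and 808 ± 136 in control pools (log2 0.24 ± 0.11, adjusted p = 0.367), a difference of 0.15 without control replicate 5. Slc18b1, a polyamine transporter, differed by 0.05 (-0.0018 without that array). Of 11 tested genes of the lysosomal mTORC1 platform, which senses amino acids together with the pump, 4 were above 0, 1 had an unadjusted p under 0.05 and 0 passed in limma. Rraga, Slc38a9 and Rragc had log2 differences of 0.14, -0.22 and -0.11 (adjusted p = 0.370, 0.463 and 0.494).

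Among lysosomal genes, the cysteine protease gene Ctsf rose. Its signals were 603.9, 598.7, 588.6, 601.2 and 560.8 in dehydrated pools, against 464.8, 443.9, 491.4, 506.5 and 472.7 in control pools. The groups were apart, with a log2 difference of 0.31 ± 0.06 (limma adjusted p = 0.0186). The call was lost without dehydrated replicate 3 (adjusted p = 0.0536), dehydrated replicate 4 (0.0584), control replicate 1 (0.0559) or control replicate 2 (0.0672), and in a fit without the variance trend (0.0951). Of the 19 lysosomal genes tested, 1 rose, 0 fell and 18 did not pass, 12 were above 0 and 5 had an unadjusted p under 0.05, and the median log2 difference was 0.07. Over all tested probe sets 0.580% passed, 48.8% were above 0 and 12.7% had an unadjusted p under 0.05. Ctsl, another cysteine protease of lysosomes, had 483.0 to 592.4 in dehydrated and 389.8 to 447.0 in control pools (log2 0.30 ± 0.07, adjusted p = 0.0677), and its second probe set had a log2 difference of 0.30 (adjusted p = 0.108). For Ctsf and both probe sets of Ctsl the dehydrated pools all lay above the controls, where 1.94% of all tested probe sets did. Cd63, a lysosomal membrane tetraspanin, and the protease gene Ctsz differed by 0.17 and 0.29 (adjusted p = 0.279 and 0.320).

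The E-box windows of 3 promoters are shown because Atp6v0d1 was the 1 member with a match and Ctsf the lysosomal gene that rose, with Vma21 as the match among assembly genes. They are 30 bases each from RefSeq on build GRCr8, with the motif in capitals. Atp6v0d1 lies on the minus strand at chr19:50357283-50357312, the assembly factor gene Vma21 on the plus strand at chrX:154537101-154537130 and Ctsf on the plus strand at chr1:211582008-211582037.
Atp6v0d1: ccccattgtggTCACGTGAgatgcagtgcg
Vma21: ccgtgggtaagTCACGTGAgtgtttgcagc
Ctsf: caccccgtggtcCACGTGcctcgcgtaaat
The motif began 53, 59 and 149 bases before the start of Atp6v0d1, Vma21 and Ctsf. Of the 10 members 7 had a window in the table, and the window of Atp6v0d1 held the core and the extended form. Outside the members, the V0 subunit gene Atp6v0e1 also held both forms. Among lysosomal genes 5 of 16 held the core CACGTG and 2 of 16 the extended form, where 7.08% and 0.896% of all 27457 genes did. Besides Ctsf the lysosomal genes with the core were Cd63, Ctsd, Gaa and Lamp1, none of which passed. The counter-ion list had higher shares, with the core in 5 of 12 genes and the extended form in 2 of 12. The cyclic AMP response element was in 0 of the 7 member windows. These matches are letters in a window and were not tied to any factor here.

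**Figure D3:**
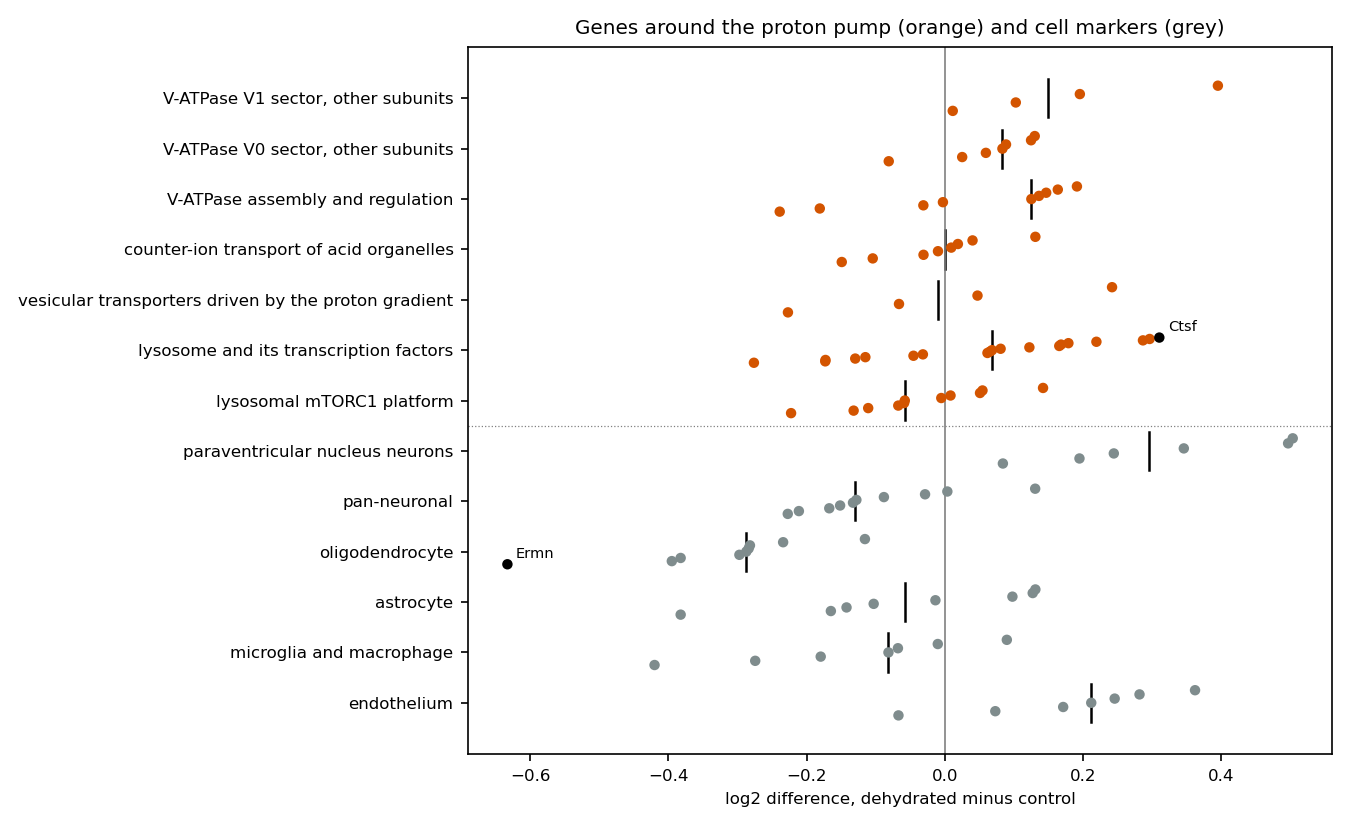
Log2 differences, dehydrated minus control, of the genes of 7 lists around the pump (orange) and 6 lists of cell markers (grey), 1 point per gene, with a vertical tick for the list median and black points for genes past the threshold. Ctsf is at 0.31 and the oligodendrocyte gene Ermn at -0.63, and all 9 oligodendrocyte genes lie below 0.

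Of the 6 lists of cell markers, the summed signals of oligodendrocyte genes did not overlap between the groups, and the sums of the other 5 did. In limma 1 marker gene, Ermn, passed. All 9 tested oligodendrocyte markers were below 0, by a median of -0.29 on the log2 scale, and their summed signal ran from 6809 to 7036 in dehydrated and from 7327 to 8853 in control pools. Ermn, a myelin cytoskeleton gene, fell at its brightest probe set, with 117 ± 19.6 in dehydrated and 184 ± 26.8 in control pools (log2 -0.63 ± 0.12, limma adjusted p = 0.0255). A dimmer Ermn probe set had overlapping groups and did not pass (log2 -0.30 ± 0.14, adjusted p = 0.397), and another was too dim to be tested. Markers of the paraventricular nucleus were above 0 in 6 of 6 tested genes (median 0.30), and their sums ran from 10730 to 13599 in dehydrated and from 8437 to 11433 in control pools. Avp and Oxt were the largest terms, with mean signals of 4244 and 4475 over the 10 arrays, so these sums mainly follow the 2 hormone genes. Endothelial markers were above 0 in 6 of 7 (sums 1049 to 1210 in dehydrated and 850.3 to 1162 in control pools). The pan-neuronal list had 2 of 10 above 0, with sums of 9510 to 10964 in dehydrated and 10515 to 10950 in control pools. In that list the neurofilament gene Nefl was below 0 at its brightest probe set (log2 -0.23 ± 0.10, limma adjusted p = 0.364). Its dimmer probe set went the other way (log2 0.34 ± 0.08, adjusted p = 0.0648). Astrocyte markers were above 0 in 3 of 8 (13522 to 15107 in dehydrated and 13620 to 15240 in control pools) and microglial markers in 1 of 7 (867 to 982 in dehydrated and 962 to 1065 in control pools). No tested marker had a signal of 0 in any pool. The part of these shifts in the differences of Atp6ap1l, the pump genes and the lysosomal genes was not tested.

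Genes beside Atp6ap1l on the chromosome were compared because its gene model overlaps that of Rps23, a ribosomal protein gene, in the RefSeq table. Of the 5 protein-coding genes on each side, 8 had tested probe sets, 13 in all. In limma 0 of the 13 were called and 3 had an unadjusted p under 0.05, with log2 differences from -0.36 to 0.47 and adjusted p from 0.135 to 0.997. Rps23 had 4560.8, 4307.6, 4308.0, 5550.1 and 5049.5 in dehydrated pools, against 4201.6, 4364.1, 4017.9, 4611.3 and 4310.6 in control pools. The groups overlapped (log2 0.14 ± 0.07, adjusted p = 0.399). These signals lay near the highest signal of an array (4988.6 to 6495.5), as for Avp and Oxt, so this size may also be understated. Tmem167a, the nearest gene on the other side, had 3 tested probe sets with log2 differences of -0.06, 0.04 and 0.21. Without control replicate 5 these were -0.10, 0.07 and -0.01, the last turning sign with the signal of 41.5 on that array. The autophagy gene Atg10 differed by -0.0013, and by -0.12 without that array. The matrix proteoglycan gene Vcan had 2 probe sets at 0.44 and 0.47 and another at -0.12 (adjusted p = 0.346, 0.173 and 0.670). Ssbp2, a single-stranded DNA binding protein gene, had probe sets at -0.36 and -0.12 (adjusted p = 0.135 and 0.751). Hapln1 and Acot12 were too dim to be tested, and the others were Edil3 at -0.08 (-0.15 without that array), the DNA repair gene Xrcc4 at -0.15 and Zcchc9 at -0.17.

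**Figure D4:**
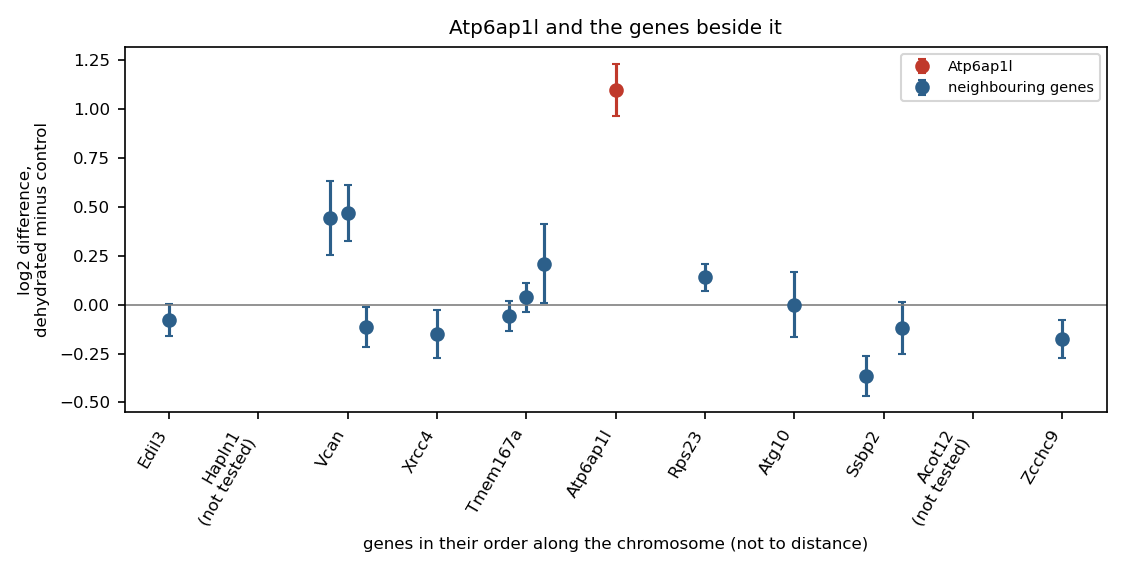
Log2 differences, dehydrated minus control, of Atp6ap1l (red) and of the tested probe sets of its neighbouring genes (blue) in chromosomal order, with bars for the standard error. Atp6ap1l is at 1.10 and the 13 neighbouring probe sets lie between -0.36 and 0.47.

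Within groups, signals of the other pump genes were more often positively than negatively correlated from pool to pool, while most pairs with Atp6ap1l were negative. Correlations were taken over the 10 arrays after subtracting each group's mean, and since all pairs share the arrays and their scaling, they are given as a description. Among the 66 pairs of the other 12 probe sets, 45 had a positive Pearson r, with a median of 0.26 (0.30 without control replicate 5). The highest were Atp6ap2 (1396279_at) with Atp6v1h at 0.82 and Atp6ap1 with Atp6v1a (1374431_at) at 0.81. The probe sets of Atp6v1b2 had 0.77, with and without control replicate 5. Those of Atp6ap2 had -0.24, and 0.02 without that array, and those of Atp6v1a had 0.14, and 0.47 without it, so both values rest on 1 array. Of the 12 pairs with Atp6ap1l, 10 were negative, with r from -0.40 to 0.43 and a median of -0.29. Without control replicate 5 the count was 8 and the median -0.13, with r from -0.70 to 0.29.

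**Figure D5:**
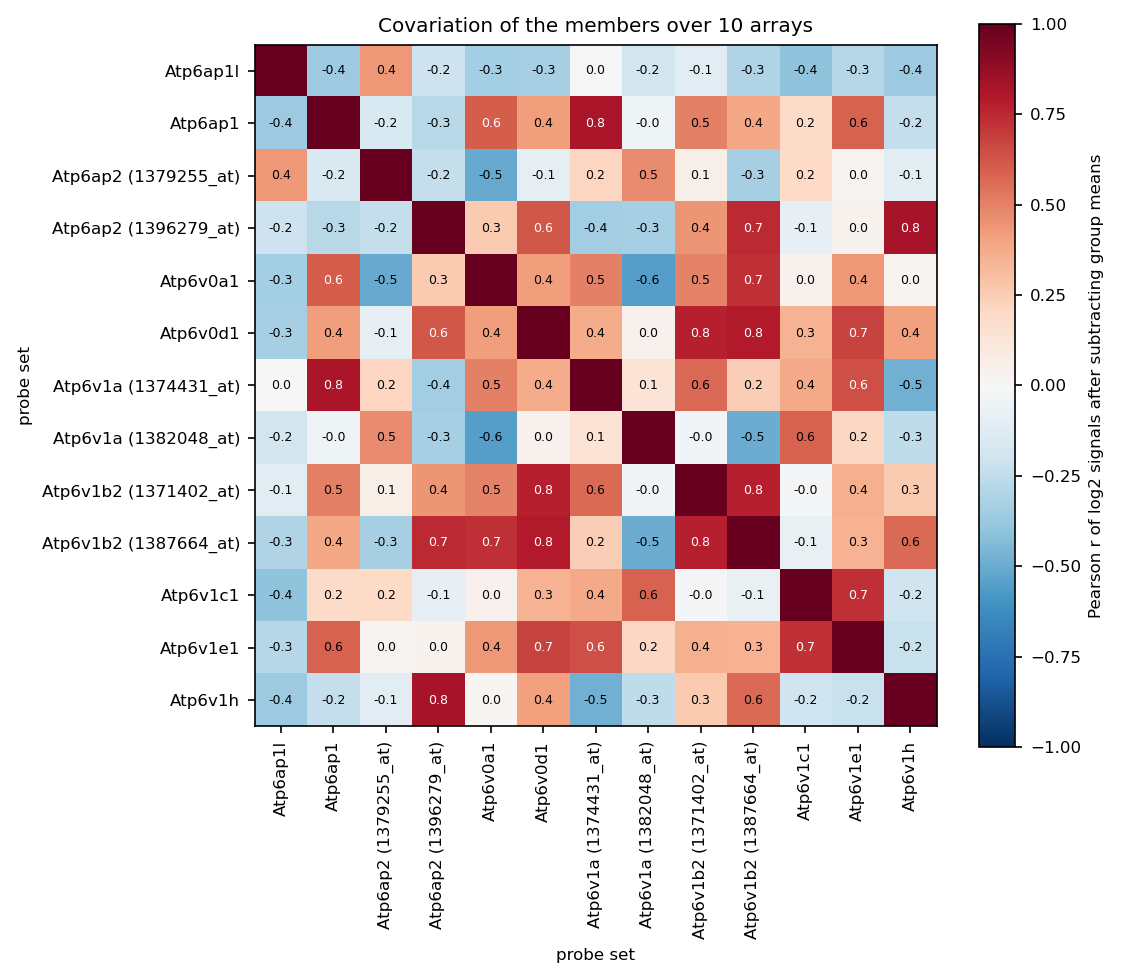
Pearson correlations of log2 signals over 10 arrays after subtracting group means, for every pair of the 13 member probe sets (red positive, blue negative). The row of Atp6ap1l runs from -0.40 to 0.43, and Atp6ap2 (1396279_at) with Atp6v1h reaches 0.82.

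The genes whose signals followed Atp6ap1l most closely over all 10 arrays were not pump genes. The other pump genes had small differences between the groups, so they could hardly rank here. The highest Pearson r among tested probe sets with 1 symbol were 0.974 for Rpp25l, a ribonuclease P subunit-like gene, 0.963 for Disp3, 0.960 for the netrin receptor Unc5c, 0.958 for the ubiquitin ligase component Rnf7 and 0.956 for the kinase gene Dclk1. These r include the difference between the groups, on which Atp6ap1l was chosen, so the ranking favours genes whose groups are apart. All 5 genes had higher signals in dehydrated pools without overlap, where 1.94% of all tested probe sets did, and nothing is read from this. Rpp25l, the closest, had 202.2, 183.0, 212.5, 194.4 and 180.4 in dehydrated pools, against 151.3, 163.3, 152.7, 153.3 and 147.0 in control pools. Dehydrated replicates 2 and 5 were the lowest of their group for Rpp25l as they were for Atp6ap1l, a likeness that the ranking also favours. The log2 differences of the 5 genes ran from 0.22 for Dclk1 to 0.54 for Disp3, smaller than that of Atp6ap1l. After subtracting the group means the closest were Cep128 (0.941), Tal1 (0.939), Sesn3 (0.934), Zfp710 (0.928) and Pds5a (0.922), whose groups overlapped and whose log2 differences ran from -0.19 to 0.29. These 5 are the top of all tested probe sets with 1 symbol over only 10 arrays. Values this high can come from the picking alone, and no link to Atp6ap1l was tested. Without control replicate 5 the difference of Tal1 was -0.02 in place of 0.06, and that of Pds5a -0.06 in place of -0.03.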

How the data were processed

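RNA of 5 dehydrated and 5 control pools was measured on 1 array each. The authors deposited linear intensity values, 1 signal per probe set and array, for which the submitters' processing notes name GCOS 1.2. How GCOS computed a signal and removed background is not given in the sources used here. Once trimmed by 2% at each end, the mean signal was 100 on all arrays, and medians ran from 36.4 to 39.1, so a common scaling had been applied. Such signals hold background at the low end and can compress at the top, which would shrink differences there. Precision is limited by how many arrays there are.

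Of 31099 probe sets, 57 controls were left out. Signals were tested as log2(signal + 3.72), the pseudocount being 0.1 of the median array median, which understates differences of dim probe sets. The 18629 probe sets with a mean of at least 24.1 (the 40th percentile) entered lmFit and eBayes (trend) of limma (version 3.58.1, run under R 4.3.3). The two-sided p-values were adjusted by Benjamini-Hochberg across all those probe sets, and the threshold was 0.05. The script was tested on simulated data. Symbols were updated through Entrez identifiers with a RefSeq gene table of assembly GRCr8.

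Groups came from the sample source names, and replicate numbers follow accession order. The numbers in the sample titles are consecutive within each group, with control replicate 5 numbered far from the rest. No array holds both groups and no date was used, so array batches and hydration state cannot be told apart. The members, the lists and the tests were chosen with earlier results of these data known. Text names every member, from each list the genes past the threshold and up to 3 more with the smallest p, the 10 neighbours of Atp6ap1l, and the 5 genes closest to it by each correlation. A few second probe sets, Tcirg1 and Nefl were named after their values were seen. Alternatives were other scalings, pseudocounts, filters and variance models, array weights, arrays left out, and a gene-level mean of its probe sets.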

Additional observations from a re-analysis of the deposited data

Results flagged for a closer look

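Of 116 groups of 5 arrays examined for probe sets named in the text, 2 held an array far from its group where chance gives about 1 in 20. Atp6v0a1 had a signal of 461.4 on control replicate 5, where the other control arrays ran from 284.4 to 304.7. Disp3 had 26.0 on control replicate 1, where the others ran from 20.3 to 21.9.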

How the results depend on the processing

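The log2 difference of Atp6ap1l, which was chosen on this comparison, ran from 1.04 to 1.19 with each array left out and was 0.69 with a pseudocount of 64, which shrinks dim signals by construction. The other 12 member probe sets moved by less than 1 SD between replicates in every alternative run. The number of all probe sets past the threshold was 108 in the reported fit, 64 with no filter, 45 with no variance trend and 201 with array weights. Leaving out single arrays gave 46 (dehydrated replicate 3) to 148 (control replicate 5), and counts more than 1.5 times lower also without dehydrated replicates 1 and 4 and control replicates 1, 2, 3 and 4 (70, 50, 56, 57, 66 and 71). The number of lysosomal genes that rose was 1, but 0 with no variance trend, 2 with array weights and 2 with the mean of all probe sets of a gene, Ctsl being the second in both (adjusted p = 0.0293 and 0.0334), and 0 to 1 with arrays left out. The other 6 lists had 0 calls under every alternative. With arrays left out Slc18b1 ran from -0.0018 (control replicate 5, a change of sign) to 0.077. The cause of these changes was not tested. No paired analysis was possible because the replicate numbers follow accession order and pair nothing.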
